A study of Homo sapiens with 9 samples.

Results

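The genes described here are the 5 members of the NFAT family of transcription factors (NFATC1, NFATC2, NFATC3, NFATC4 and NFAT5), 2 catalytic subunits of calcineurin (PPP3CA and PPP3CB) and the calcineurin regulator RCAN1. These 8 genes were taken by symbol from 58884 genes in the count table, and all 8 were among the 13001 genes that passed the filter on low counts. RNA-seq was analyzed in 9 libraries of MDA-MB-231, a claudin-low human breast cancer line. The parental line (Par) was compared with LM2, a sub-population selected in mice for its capacity to colonize the lung, and with BrM2, a sub-population selected for the brain, with 3 libraries per line. All 3 lines were grown as monolayers in DMEM with 10% FBS for 3 days and none received a further treatment. LM2 and BrM2 are 1 selected population each, and the replicates of a line are different passages, so the p-values measure the spread between passages and not between independent selections.

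NFATC1 to NFATC4 are kept in the cytoplasm by phosphorylation. When calcium rises, calmodulin activates calcineurin, which removes these phosphates, and the factors enter the nucleus, where they bind GGAAA elements together with AP-1, MEF2 and other partners. NFAT kinases return them to the cytoplasm. NFAT5 lacks the calcineurin-binding region and responds to osmotic stress. RCAN1 binds and inhibits calcineurin and is itself an NFAT target, and in breast cancer cells NFAT activity has been tied to migration and invasion. RNA levels do not report the phosphorylation or location of these proteins.

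NFATC4 and NFATC1 were picked because their RNA was seen to be higher in BrM2 and in LM2, so their values are a description and were not tested. The other 6 genes were tested in edgeR by quasi-likelihood, with p-values adjusted by Benjamini-Hochberg over all 13001 genes and a threshold of 0.05. Levels are counts scaled to CPM after TMM normalization, which scales each library by its counts and its composition. The library totals lay between 14371858 counts in BrM2 replicate 1 and 24511786 counts in LM2 replicate 3. The libraries of replicate 1 deviated together across the lines (Pearson r of 0.83 to 0.9). Those of the other replicate numbers were not clearly paired. A fit with the replicate number as a block is given for the 8 genes wherever it changed a call. For the wider pathway it is given as counts per role with the genes concerned. The block takes every replicate number to pair the libraries, which the correlations show for replicate 1 only. The 3 replicate 1 libraries stood apart in all lines, with lower values of genes of low GC content (Spearman's rho between shift and GC content 0.81 across 12884 genes, which are not independent replicates). The summed level of 6 mesenchymal markers was between 3960 and 6870 CPM in all libraries, and 6 of 7 lung and brain markers were at or under 3 counts in every library, the exception being GFAP. Summed luminal epithelial markers (8 genes) were at 102 to 145 CPM in Par, 21.7 to 27.9 CPM in LM2 and 34.9 to 70.9 CPM in BrM2, and ESR1, PGR and CLDN3, which were among them, had at most 16 counts in any library. Most of the sum in Par was CLDN4, with means of 95.1, 5.82 and 19.9 CPM in Par, LM2 and BrM2. The means of GATA3 (12.9, 4.32 and 7.47 CPM), EPCAM (7.15, 4.81 and 6.08) and CDH1 (1.2, 0.344 and 0.43) were lower than Par in both lines. That of CLDN7 (13.3, 8.28 and 15.7) was lower only in LM2, and ESR1 (0.171, 0.394 and 0.349) was higher in both. The leukocyte and endothelial markers summed to at most 7.48 CPM. The part of the luminal markers in the differences given here was not tested.

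Sequences upstream of RefSeq starts are shown for NFATC4, NFATC1 and NFATC2, whose levels differed most between the lines, and for RCAN1, of which 1 start has several NFAT core elements in its window. Sequences are from RefSeq on GRCh38.p14, 5′ to 3′ on the strand of the gene, with each GGAAA or its reverse complement TTTCC in capitals. NFATC4 is on chromosome 14 (24366911 to 24379604, plus strand), and chr14:24366661-24366910 ends just before its first base. The NFATC2 stretch is chr20:51562840-51563089 (minus strand), the NFATC1 stretch is chr18:79400049-79400273 (plus strand) and the RCAN1 stretch is chr21:34526964-34527072 (minus strand). The NFATC1 stretch belongs to the start at 79400299, the second of its 2 listed starts, and the RCAN1 stretch to the start at 34526822, 1 of its 6 listed starts. For these, only the 225 and 109 bases of the 250-base window farthest from the start are printed, because the bases next to the start lie in an annotated transcript of the gene.
NFATC4: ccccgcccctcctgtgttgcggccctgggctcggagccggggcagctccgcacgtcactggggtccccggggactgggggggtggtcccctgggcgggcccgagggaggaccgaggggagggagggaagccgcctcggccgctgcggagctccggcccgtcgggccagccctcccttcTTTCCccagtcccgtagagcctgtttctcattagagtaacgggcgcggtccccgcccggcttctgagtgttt
NFATC2: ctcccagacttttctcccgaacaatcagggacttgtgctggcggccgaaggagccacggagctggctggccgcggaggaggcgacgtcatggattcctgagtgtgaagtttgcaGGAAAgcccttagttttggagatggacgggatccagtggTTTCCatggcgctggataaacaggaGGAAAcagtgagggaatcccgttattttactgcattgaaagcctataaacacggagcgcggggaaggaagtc
NFATC1: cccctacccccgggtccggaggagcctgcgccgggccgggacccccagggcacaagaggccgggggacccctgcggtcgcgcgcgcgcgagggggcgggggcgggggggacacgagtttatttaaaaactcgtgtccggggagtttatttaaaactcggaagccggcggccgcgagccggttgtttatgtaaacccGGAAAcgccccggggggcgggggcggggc
RCAN1: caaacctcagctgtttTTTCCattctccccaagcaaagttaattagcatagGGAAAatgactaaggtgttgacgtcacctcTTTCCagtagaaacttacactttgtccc

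RefSeq start windows of 250 bases were matched for 5 of the 8 genes, and NFAT5, PPP3CA and PPP3CB had no entry. The 5 letters GGAAA were found on either strand in 5 of the 14 windows of these genes, against 55.6% of 35116 windows of all genes. The NFATC4 and NFATC1 stretches hold 1 match each. The NFATC2 stretch holds 3, and at least 3 are found in 7.12% of all windows. The whole 250-base window of the RCAN1 start holds 4, of which 3 lie in the stretch shown, and at least 4 are found in 1.87% of all windows. Of these 4, 2 are part of TGGAAA (2.14% of all windows have at least 2). For NFATC4, NFATC2 and RCAN1 the window shown is the only 1 with a match among 3, 2 and 6 listed windows. The percentages are of single windows and do not allow for that choice. The counts are per gene, so they do not show which of several starts was used.

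NFATC4 had at most 12 counts in any library of Par and LM2 and at least 118 in each BrM2 library. The libraries of Par had 7, 1 and 1 counts (0.367, 0.0483 and 0.0392 CPM). LM2 held 8, 12 and 9 counts (0.396, 0.488 and 0.344 CPM), and BrM2 held 132, 118 and 144 (9.71, 5.19 and 6.88 CPM). Every BrM2 library was above every library of the other lines, whereas Par replicate 1 reached into the range of LM2. The fitted log2 fold change was 5.62 ± 0.63 (SE, n = 3 per line) for BrM2 over Par, a 49.1-fold difference, and 4.13 ± 0.55 for BrM2 over LM2, a 17.5-fold difference. For LM2 over Par it was 1.49 ± 0.70, between 0.96 and 3.11 as libraries were left out. The value for BrM2 over Par rests on 9 counts in Par against 394 in BrM2. The exact 95% interval of the ratio of these summed counts, per normalized library size, was 26.1 to 110 and covers counting error only, and the log2 fold change ranged between 5.11 and 7.21 as libraries were left out.

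NFATC1, the family member induced through its own promoter in lymphocytes and osteoclasts, was low in all lines and highest in LM2. It stood at 1.62, 1.01 and 0.784 CPM in Par, at 4.70, 2.81 and 3.13 CPM in LM2, and at 2.72, 1.63 and 2.91 CPM in BrM2. Both metastatic lines were above Par without overlap, and BrM2 overlapped LM2. The gap between BrM2 and Par was narrow, with 1.63 CPM (37 counts) in BrM2 replicate 2 and 1.62 CPM (31 counts) in Par replicate 1. Its log2 fold change was 1.64 ± 0.38 for LM2 over Par, a 3.12-fold difference, and 1.09 ± 0.38 for BrM2 over Par. Between BrM2 and LM2 the difference was -0.55 ± 0.36. NFATC1 had only 20 to 95 counts per library.

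NFATC2, which has been linked to invasion of breast carcinoma cells, was the tested gene that separated the 3 lines. It was at 20.2, 17.0 and 18.5 CPM in Par, at 14.2, 12.9 and 13.1 CPM in LM2, and at 28.3, 29.5 and 26.9 CPM in BrM2. The ranges of the lines did not overlap in any comparison, with LM2 lowest and BrM2 highest. BrM2 was 2.11-fold above LM2 (log2 fold change 1.08 ± 0.17, adjusted p = 0.0054 by the quasi-likelihood test of edgeR), and the call held without any single library (adjusted p from 0.01 to 0.036). Over all alternatives it was lost in 2, with an adjusted p of up to 0.35 in edgeR. BrM2 was 1.52-fold above Par (log2 fold change 0.61 ± 0.17, adjusted p = 0.048 by edgeR). That call was kept only without LM2 replicate 1 (adjusted p = 0.040) and was lost when any of the other 8 libraries was left out (adjusted p from 0.083 to 0.19). The log2 fold change of LM2 over Par was -0.47 ± 0.17 with an adjusted p of 0.15 in edgeR. With the replicate block the adjusted p of LM2 against Par was 0.018 in edgeR.

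NFATC3 and NFATC2 made up most of the calcineurin-regulated NFAT RNA in each library. NFATC3 was at 21.2, 21.6 and 24.4 CPM in Par, at 23.8, 28.9 and 35.1 CPM in LM2, and at 26.9, 37.0 and 38.0 CPM in BrM2. BrM2 did not overlap Par, and LM2 overlapped both. In BrM2 over Par its log2 fold change was 0.60 ± 0.22 (adjusted p = 0.12 in edgeR, 0.0044 with the replicate block). For LM2 over Par it was 0.39 ± 0.22 (adjusted p = 0.40 in edgeR, 0.049 with the replicate block). NFATC3 shares 227 exonic bases with ESRP2 and 2796 with another gene on the opposite strand, and 1385 and 285 with further genes on its own strand. The strand counted and the treatment of reads in shared exons are not stated, so its counts are uncertain in these stretches. Mean counts were 620.8 for NFATC3, 152.9 for ESRP2 and 0.0 to 1.3 for the other overlapping genes. ESRP2 was at 6.58 to 7.72 CPM in Par, 1.95 to 2.67 CPM in LM2 and 11.1 to 14.6 CPM in BrM2.

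NFAT5, the osmotic stress member, showed no difference that exceeded the spread between replicates. It was at 33.6, 69.5 and 80.2 CPM in Par, at 27.0, 68.7 and 98.6 CPM in LM2, and at 22.3, 67.1 and 60.2 CPM in BrM2. Replicate 1 was the lowest library in every line, and the lines overlapped throughout. Its shift in replicate 1 averaged -1.42 on the log2 scale over the lines, at the 6th percentile of all genes, with 39.2% GC. The log2 fold changes were 0.09 ± 0.55 for LM2 over Par, -0.29 ± 0.55 for BrM2 over Par and -0.38 ± 0.55 for BrM2 over LM2, and no adjusted p in edgeR was under 0.096, with or without the block. For NFATC1, with 60.0% GC, replicate 1 shifted up by 0.80, 0.65 and 0.31 in Par, LM2 and BrM2. For NFATC4, with 59.6% GC, the shifts were 1.75, -0.04 and 0.69, and that of Par rests on 7 counts against 1 and 1.

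**Figure D1:**
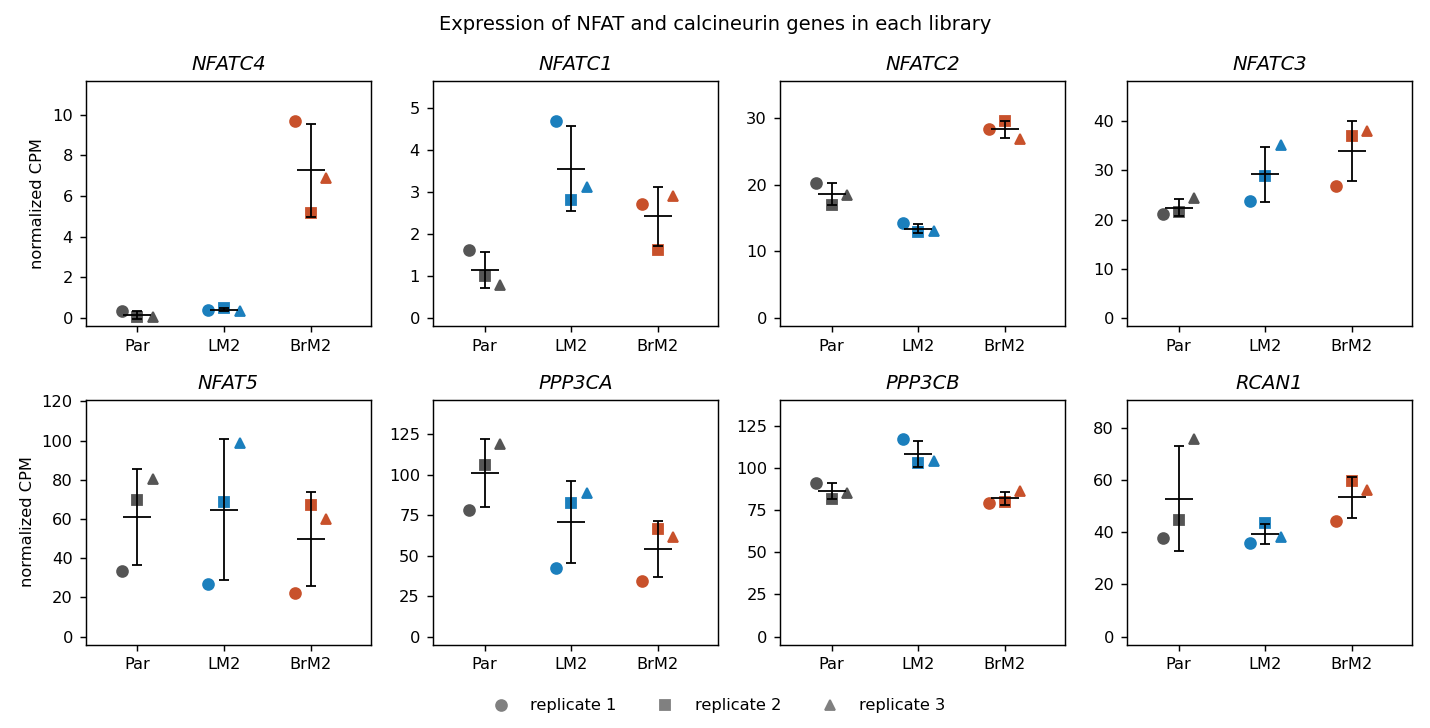
Normalized CPM (linear axes, a separate scale per gene) of the 8 genes in each library of Par, LM2 and BrM2, with marker shapes for the replicate numbers and horizontal bars with error bars for the mean ± SD of 3 libraries. The BrM2 libraries of NFATC4 sit between 5.19 and 9.71 CPM, above all others, and replicate 1 is the lowest NFAT5 library in every line.

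Levels of different genes were compared as CPM per kb of the annotated main transcript. NFATC3, NFAT5 and RCAN1 share 1385, 1588 and 921 exonic bases with another gene on the same strand. How reads in such bases were counted is not stated, so the levels of these genes, and orders and shares that use them, carry that uncertainty. In Par the order of the NFAT genes was NFAT5 (mean 4.60 CPM per kb), NFATC3 (3.54), NFATC2 (2.47), NFATC1 (0.234) and NFATC4 (0.0318), where the libraries of NFAT5 overlapped those of NFATC3 and NFATC2. The LM2 order of the means was the same, with NFAT5 at 4.88 ± 2.71 (SD) and NFATC3 at 4.62 ± 0.891 CPM per kb, and turns between those neighbours when the length of all exons is used. In BrM2 it was NFATC3 (5.37), NFATC2 (3.76), NFAT5 (3.75), NFATC4 (1.53) and NFATC1 (0.497), with NFAT5 overlapping NFATC3, NFATC2 and NFATC4. NFATC4 was last in Par and LM2 and above NFATC1 in BrM2 by either length. PPP3CB, PPP3CA and RCAN1 had means of 11.4 to 30.6 CPM per kb, above every NFAT gene in each line.

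The summed level of NFATC1 to NFATC4 was 5.89 to 6.48 CPM per kb in Par, 6.69 to 8.01 CPM per kb in LM2 and 10.6 to 11.6 CPM per kb in BrM2, so the BrM2 libraries were above all others. NFATC4 was 1.19, 0.172 and 0.127% of that sum in Par, 1.24, 1.48 and 0.902% in LM2, and 19.2, 9.73 and 12.4% in BrM2. NFATC2 was 37.8 to 41.7% of it in Par, 21.9 to 28.1% in LM2 and 30.8 to 35.5% in BrM2. NFATC3 was 51.9 to 59.6% in Par, 56.2 to 69.2% in LM2 and 40.1 to 52.2% in BrM2. NFATC4 was part of the choice of genes, so these shares were not tested.

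**Figure D2:**
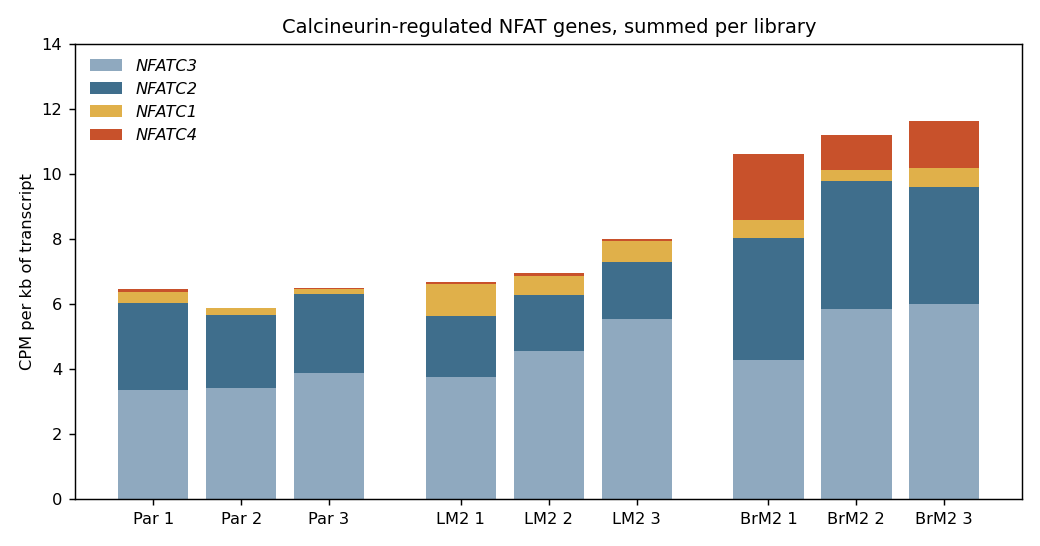
Stacked bars of CPM per kb of main transcript for NFATC3, NFATC2, NFATC1 and NFATC4 in each of the 9 libraries (1 bar per library, no error bars). The bars of BrM2 reach 10.6 to 11.6 and hold a visible NFATC4 segment, against 5.89 to 6.48 in Par.

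For the calcineurin catalytic genes the estimates in LM2 over Par had opposite signs, and neither passed without the replicate block. PPP3CA, the alpha catalytic subunit, was at 78.0, 106 and 119 CPM in Par, at 42.1, 82.2 and 88.5 CPM in LM2, and at 34.5, 66.2 and 61.5 CPM in BrM2. BrM2 was below Par without overlap, whereas LM2 overlapped both lines, and replicate 1 was lowest in each line. PPP3CA had a log2 fold change of -0.90 ± 0.35 for BrM2 over Par (adjusted p = 0.14 in edgeR, 0.00025 with the replicate block), -0.51 ± 0.35 for LM2 over Par (0.50, and 0.0075 with the block) and -0.39 ± 0.35 for BrM2 over LM2 (0.61, and 0.044 with the block). The annotation places 46 exonic bases of another gene on the opposite strand of PPP3CA, with a mean of 60.3 counts against 1685.7 for PPP3CA.

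PPP3CB, the beta catalytic subunit, was at 91.0, 81.7 and 85.2 CPM in Par, at 117, 103 and 104 CPM in LM2, and at 79.0, 80.0 and 86.2 CPM in BrM2. Every LM2 library was above every library of the other lines. For LM2 over Par its log2 fold change was 0.33 ± 0.15 (adjusted p = 0.28 in edgeR, 0.039 with the replicate block) and that of BrM2 over LM2 was -0.40 ± 0.15 (0.18, and 0.016 with the block). PPP3CB shares 13 exonic bases with PPP3CB-AS1 on the opposite strand, which was at 2.09 to 2.61 CPM in Par, 4.11 to 6.30 CPM in LM2 and 1.62 to 2.33 CPM in BrM2. The ratio of PPP3CA to PPP3CB counts was 0.857, 1.30 and 1.39 in Par, 0.361, 0.801 and 0.851 in LM2, and 0.437, 0.827 and 0.714 in BrM2. Within each replicate number Par had the highest ratio, a quantity chosen after the values were seen and not tested.

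RCAN1, the inhibitor and NFAT target, was at 37.9, 44.5 and 75.6 CPM in Par, at 35.9, 43.4 and 38.1 CPM in LM2, and at 44.3, 59.4 and 56.2 CPM in BrM2. Par replicate 3 was the highest library of all, and BrM2 was above LM2 without overlap. BrM2 over LM2 had a log2 fold change of 0.45 ± 0.27 (adjusted p = 0.42 in edgeR). For LM2 over Par it was -0.43 ± 0.27 (adjusted p = 0.47 in edgeR) and without Par replicate 3 it was -0.07, so that difference rests on 1 library. For BrM2 over Par it was 0.02 ± 0.27 (adjusted p = 0.98 in edgeR), and 0.37 without Par replicate 3.

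Of the 6 tested genes, none passed in LM2 against Par, where 8.65% of all genes tested did. There, 1 had an unadjusted p under 0.05 in edgeR, and DESeq2 called 0. The share of all genes at an unadjusted p under 0.05 is not given, here or below, so such counts are not read as results. In BrM2 against Par, 1 of 6 passed (13.2% of all genes), and in BrM2 against LM2, 1 of 6 (8.08% of all genes). With the replicate block 4, 3 and 3 of 6 passed, beside 34.5%, 42.7% and 37.5% of all genes. The libraries did not overlap for 2, 3 and 3 of the 6, where 25.1%, 31.3% and 23.1% of all genes did not. The median log2 fold change of the 6 was -0.17, -0.03 and -0.08, beside 0.01, -0.02 and -0.03 over all genes. LM2 and BrM2 were compared with the same Par libraries, and the difference between them is tested directly in BrM2 against LM2.

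**Figure D3:**
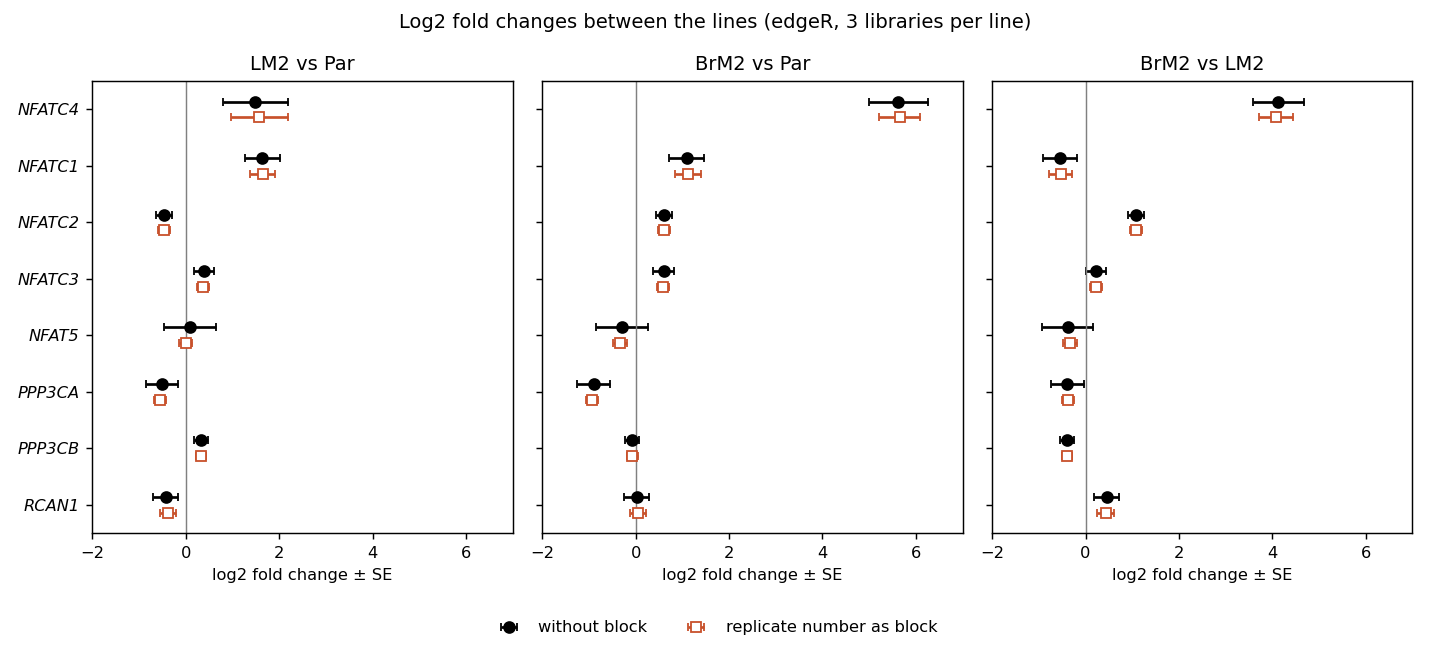
Log2 fold change ± SE of the 8 genes in the 3 comparisons, fitted in edgeR with 3 libraries per line, without the replicate number (filled circles) and with it as a block (open squares). The estimates nearly coincide and the errors of NFAT5 and PPP3CA shrink with the block, from 0.55 to 0.14 and from 0.35 to 0.13 in LM2 against Par.

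The pathway around these factors was described over 91 further genes in 6 roles, of which 90 were in the table and 61 were tested. In LM2 against Par, 5 were higher and 1 was lower, which is 9.84% of those tested, while 4.17% of all genes were higher and 4.48% lower. In BrM2 against Par, 7 were higher and 2 lower (14.8%), while 6.25% of all genes were higher and 6.99% lower. In BrM2 against LM2, 3 were higher and 3 lower (9.84%), while 4.08% of all genes were higher and 4.0% lower. The medians of the list were -0.06, 0.03 and 0.04, beside 0.01, -0.02 and -0.03 for all genes. With the replicate block 29, 27 and 16 passed (47.5%, 44.3% and 26.2% of those tested, beside 34.5%, 42.7% and 37.5% of all genes). Without the block, the shares that passed in either direction were near those of all genes, and with it the share was above that of all genes in LM2 against Par and below it in BrM2 against LM2. Genes named below only for a call with the block lie outside the rule for named genes and were chosen after their values were seen.

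Among 12 other calcineurin subunits and regulators tested, RCAN2, a relative of RCAN1, rose in both metastatic lines. It was at 0.524, 0.579 and 1.33 CPM in Par, at 2.67, 2.60 and 3.02 CPM in LM2 and at 2.50, 1.98 and 2.29 CPM in BrM2. Both metastatic lines lay above Par without overlap, with log2 fold changes of 1.74 ± 0.37 (adjusted p = 0.019 in edgeR) and 1.44 ± 0.37 (adjusted p = 0.033). RCAN2 passed the filter on low counts only through the metastatic lines, so these calls are not independent of the filter. The other 11 did not pass in either comparison without the replicate block. With it, 2 of the 12 passed in LM2 against Par and 5 in BrM2 against Par (16.7% and 41.7%, beside 34.5% and 42.7% of all genes). The genes added in edgeR were CHP1 in LM2 (adjusted p = 0.034), and PPP3R1 (0.0084), CABIN1 (0.033), CALM2 (0.027) and CALM3 (0.047) in BrM2, and PPIA (0.034) was added in BrM2 against LM2. PPP3R1, the calcium-binding regulatory subunit, had a log2 fold change of 0.58 ± 0.19 in BrM2 over Par (adjusted p = 0.086 in edgeR without the block), and PPP3CC, the gamma catalytic subunit, 0.10 ± 0.24.

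In calcium entry and release, 10 genes were tested, and 1 rose and 1 fell in each metastatic line against Par. ITPR1, the IP3 receptor channel that releases calcium from the endoplasmic reticulum, was at 13.2 to 17.6 CPM in Par, 27.6 to 37.9 CPM in LM2 and 22.2 to 34.9 CPM in BrM2. Its log2 fold changes over Par were 1.05 ± 0.24 in LM2 (adjusted p = 0.029 in edgeR) and 0.94 ± 0.24 in BrM2 (adjusted p = 0.034). ORAI2, a pore subunit of the store-operated entry channel, was at 45.6 to 61.5 CPM in Par, 18.3 to 31.1 CPM in LM2 and 17.5 to 35.7 CPM in BrM2. It fell by 1.19 ± 0.31 in LM2 (adjusted p = 0.049 in edgeR) and by 1.10 ± 0.31 in BrM2 (adjusted p = 0.0496) on the log2 scale. None of the 10 passed between BrM2 and LM2, where edgeR gave 0 with an unadjusted p under 0.05 and DESeq2 called 0. There ORAI1 (adjusted p = 0.013 in edgeR) and ITPR2 (0.0025) passed with the replicate block. Against Par the block raised the calls to 6 of 10 in LM2, adding STIM1 (0.0094), ORAI3 (0.0050), ITPR2 (0.0050) and ITPR3 (0.012), and to 5 of 10 in BrM2, adding STIM1 (0.00076), ORAI1 (0.036) and ORAI3 (0.00059). Of all genes, 34.5% passed with the block in LM2 against Par, 42.7% in BrM2 against Par and 37.5% in BrM2 against LM2.

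Of 14 NFAT kinases, transport factors and scaffolds tested, HOMER2, a scaffold known to compete with calcineurin for NFAT, rose in both metastatic lines. It was at 7.75, 6.08 and 7.52 CPM in Par, at 20.1, 15.5 and 16.7 CPM in LM2 and at 18.5, 15.8 and 20.7 CPM in BrM2. LM2 and BrM2 overlapped each other and not Par. The log2 fold changes over Par were 1.29 ± 0.21 in LM2 (adjusted p = 0.0059 in edgeR) and 1.36 ± 0.21 in BrM2 (adjusted p = 0.0032). IQGAP1, a cytoskeletal scaffold also found in the cytoplasmic NFAT complex, fell by 1.36 ± 0.34 on the log2 scale in BrM2 against LM2 (adjusted p = 0.040 in edgeR), from 616, 987 and 1130 CPM in LM2 to 218, 428 and 416 CPM in BrM2. The replicate block gave calls for 6, 5 and 2 of the 14 in LM2 against Par, BrM2 against Par and BrM2 against LM2, in place of 1 in each. These are 42.9%, 35.7% and 14.3%, beside 34.5%, 42.7% and 37.5% of all genes. IQGAP1 was then called against Par too, with adjusted p of 0.00075 in LM2 and 0.00081 in BrM2 in edgeR. The kinase genes DYRK1B, GSK3B and CSNK1D in LM2 and DYRK1B, GSK3B and CSNK1A1 in BrM2 were added against Par (0.0091 to 0.039), and LRRK2 in LM2 against Par (0.0097) and in BrM2 against LM2 (0.0021).

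Of 10 nuclear partners tested, FOSB and MEF2C rose in BrM2 against Par, and MEF2C and JUNB in BrM2 against LM2. FOSB and JUNB are AP-1 subunits, which bind beside NFAT at composite elements, and MEF2C is a factor that also acts with NFAT. MEF2C was at 2.98, 4.34 and 4.82 CPM in Par, at 1.73, 2.81 and 1.99 CPM in LM2 and at 10.0, 20.3 and 14.1 CPM in BrM2. Every BrM2 library was above all others, with log2 fold changes of 1.87 ± 0.33 over Par (adjusted p = 0.0064 in edgeR) and 2.76 ± 0.35 over LM2 (adjusted p = 0.0016). FOSB had a log2 fold change of 1.87 ± 0.44 in BrM2 over Par (adjusted p = 0.023 in edgeR), from 0.483 to 0.838 CPM in Par to 1.91 to 3.39 CPM in BrM2. FOSB passed the filter on low counts only through the metastatic lines, so this call is not independent of the filter. JUNB was at 1.83, 1.22 and 1.03 CPM in LM2 and at 16.6, 3.30 and 6.83 CPM in BrM2, a log2 fold change of 2.71 ± 0.59 (adjusted p = 0.025 in edgeR). In LM2 against Par none of the 10 passed, with 4 at an unadjusted p under 0.05 in edgeR and 2 called by DESeq2. Under the replicate block 6 of the 10 passed there, namely JUND (adjusted p = 0.00061 in edgeR), MEF2C (0.0057), JUNB (0.0067), FOSL1 (0.0068), FOSB (0.0076) and MEF2D (0.0096). In BrM2 the block added MEF2A against Par (0.011) and, against LM2, JUND (0.00093), MEF2A (0.00065) and FOSL1 (0.012).

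Of 27 NFAT target genes 11 were tested, and the largest difference among all 61 tested genes of the pathway was that of ADAMTS1, a secreted metalloprotease. It was at 5.08, 7.19 and 5.41 CPM in Par, at 2.57, 3.54 and 3.48 CPM in LM2 and at 177, 313 and 259 CPM in BrM2. The BrM2 libraries lay far above the others and LM2 lay below Par. BrM2 was 42.3-fold above Par (log2 fold change 5.40 ± 0.31, adjusted p = 3.5e-05 in edgeR) and 77.8-fold above LM2 (6.28 ± 0.32, adjusted p = 4.2e-05). 

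ENPP2, which encodes autotaxin, was at 0.157, 0.338 and 0.588 CPM in Par, at 1.63, 1.55 and 1.41 CPM in LM2 and at 1.91, 2.20 and 2.53 CPM in BrM2. No library of Par overlapped those of the metastatic lines. ENPP2 passed the filter on low counts only through BrM2, so its calls over Par are not independent of the filter. The log2 fold changes over Par were 2.03 ± 0.40 in LM2 (adjusted p = 0.015 in edgeR) and 2.56 ± 0.40 in BrM2 (adjusted p = 0.0033). CTSK, which encodes the protease cathepsin K, fell by 1.48 ± 0.32 on the log2 scale in BrM2 against LM2 (adjusted p = 0.023 in edgeR), from 3.32 to 4.31 CPM to 0.957 to 1.67 CPM. VEGFA, an angiogenic growth factor outside the rule for named genes and chosen after its values were seen, fell by 0.68 ± 0.15 in BrM2 against Par (adjusted p = 0.018 in edgeR). The median log2 fold change of the 11 targets was -0.34 in BrM2 over Par and -0.10 in LM2 over Par. With the replicate block 7, 9 and 5 of the 11 passed in LM2 against Par, BrM2 against Par and BrM2 against LM2, in place of 1, 3 and 2, with adjusted p of the added calls from 0.0014 to 0.048 in edgeR. That is 63.6%, 81.8% and 45.5% of the 11, beside 34.5%, 42.7% and 37.5% of all genes with the block. These calls went in both directions. In the same order, 3 were higher and 4 lower, 4 higher and 5 lower, and 2 higher and 3 lower.

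The NFAT5 tonicity targets had 4 tested genes. SLC6A6, the taurine transporter, was at 188, 177 and 162 CPM in Par, at 361, 303 and 307 CPM in LM2 and at 202, 229 and 198 CPM in BrM2. The LM2 libraries were above all others. Its log2 fold change was 0.89 ± 0.16 for LM2 over Par (adjusted p = 0.0093 in edgeR) and -0.63 ± 0.16 for BrM2 over LM2 (adjusted p = 0.045). The other 3, the aldose reductase gene AKR1B1, the inositol transporter gene SLC5A3 and the chaperone gene HSPA4L, did not pass in any comparison without the replicate block. With it, AKR1B1 passed in LM2 against Par (adjusted p = 0.037 in edgeR, 0.68 without).

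**Figure D4:**
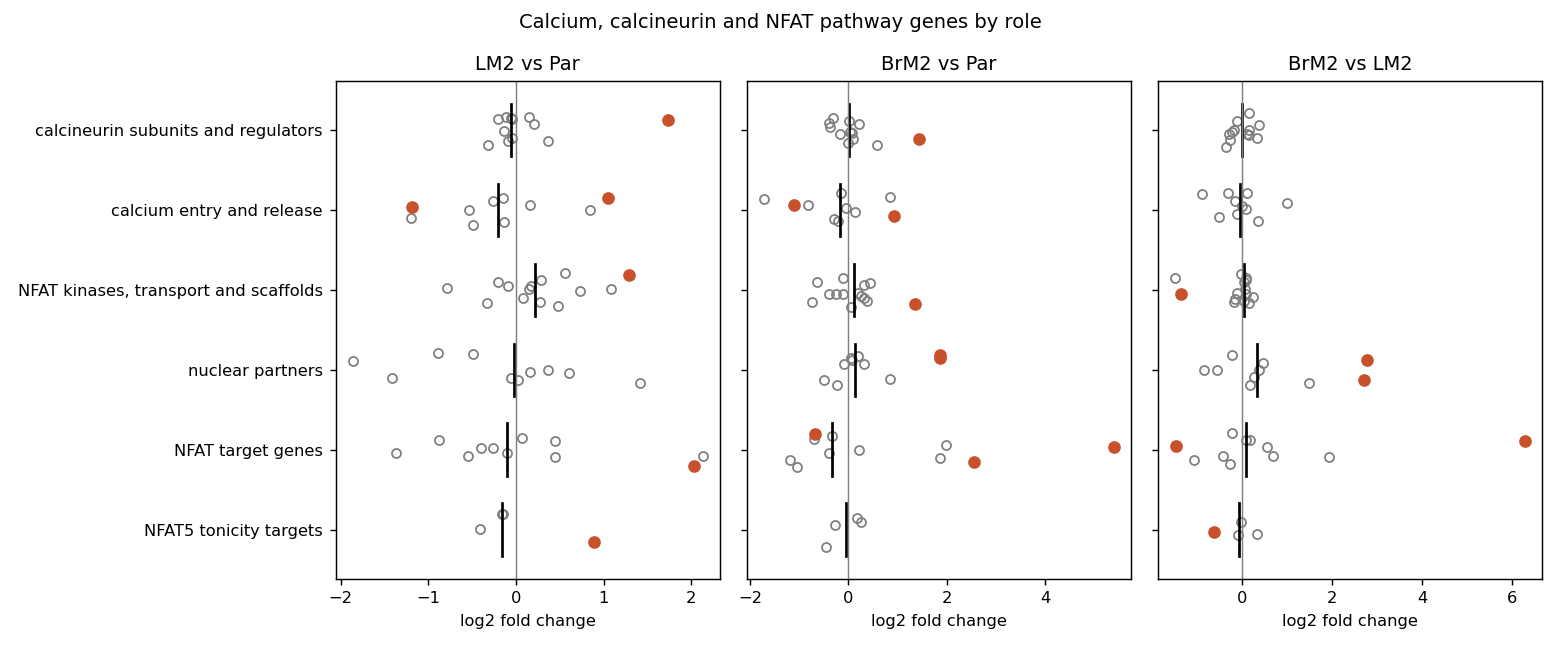
Log2 fold changes of the 61 tested pathway genes in the 3 comparisons, 1 point per gene, grouped by role, with filled points past an adjusted p of 0.05 in edgeR and vertical bars at the median of each role. The points to the far right in BrM2 are ADAMTS1, at 5.40 over Par and 6.28 over LM2, and the medians of the roles lie between -0.34 and 0.32.

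The calls of ADAMTS1 and MEF2C in both BrM2 comparisons, of HOMER2 over Par in both lines and of ENPP2 in BrM2 over Par held without any single library. That of ENPP2 in LM2 was lost without LM2 replicate 2 (adjusted p = 0.056 in edgeR) or Par replicate 2 (0.075), that of SLC6A6 in LM2 without Par replicate 3 (0.051), and that of JUNB without BrM2 replicate 3 (0.057), LM2 replicate 2 (0.11) or LM2 replicate 3 (0.10). VEGFA lost its call without BrM2 replicates 2 or 3 or Par replicates 2 or 3 (0.065 to 0.085), and FOSB without BrM2 replicates 1 or 2 or Par replicates 1, 2 or 3 (0.053 to 0.099). CTSK lost its call without BrM2 replicates 1, 2 or 3 or LM2 replicates 2 or 3 (0.051 to 0.098). RCAN2 in LM2 lost it without LM2 replicates 2 or 3 or Par replicates 1 or 2 (0.061 to 0.092), and in BrM2 it was kept only without Par replicate 3 or LM2 replicate 1, with 0.053 to 0.13 otherwise. ITPR1 was kept in 3 of 9 fits in each line, in LM2 without LM2 replicate 1 or BrM2 replicates 1 or 2 and in BrM2 without BrM2 replicate 1 or LM2 replicates 1 or 3, with 0.052 to 0.14 otherwise. ORAI2 was kept only without LM2 or BrM2 replicate 1 in both lines (0.058 to 0.18 otherwise), and IQGAP1 only without LM2 or Par replicate 1 (0.065 to 0.14 otherwise). SLC6A6 in BrM2 against LM2 was kept in 0 of 9, with adjusted p from 0.067 to 0.19.

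The gene next to NFATC4 that was tested downstream had the same pattern. NYNRIN starts 19.4 kb beyond the end of NFATC4 on chromosome 14 (24399003 to 24419283), and its Par counts were 2, 2 and 2, with 3, 8 and 11 in LM2 and 62, 87 and 79 in BrM2. All 3 BrM2 libraries were above all others. The ratio of summed counts per normalized library size was 43.4 for BrM2 over Par (228 against 6 counts, exact 95% interval 19.6 to 119) and 12.8 for BrM2 over LM2 (228 against 22 counts, 8.28 to 20.9), with intervals for counting error only. The fitted log2 fold change of NYNRIN was 5.37 ± 0.42 in BrM2 over Par and depends on the prior count, since no Par library had more than 3 counts. As NYNRIN was picked after its values were seen and for its likeness to NFATC4, no test is given. The other 5 of the 6 nearest tested genes had log2 fold changes between -0.46 and 0.29 in BrM2 over Par. NFATC4 and NYNRIN passed the filter on low counts only through BrM2. A neighbour low in every line could therefore not be among the tested genes. Untested within 90 kb were CIDEB, ADCY4 and RIPK3, with 0, 6 and 11 counts in total, and CBLN3. CBLN3 had 15, 14 and 23 counts in Par, 13, 5 and 2 in LM2 and 19, 20 and 14 in BrM2. The values of NFATC4 and NYNRIN do not show whether the DNA of this region differs between the lines, which was not tested.

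**Figure D5:**
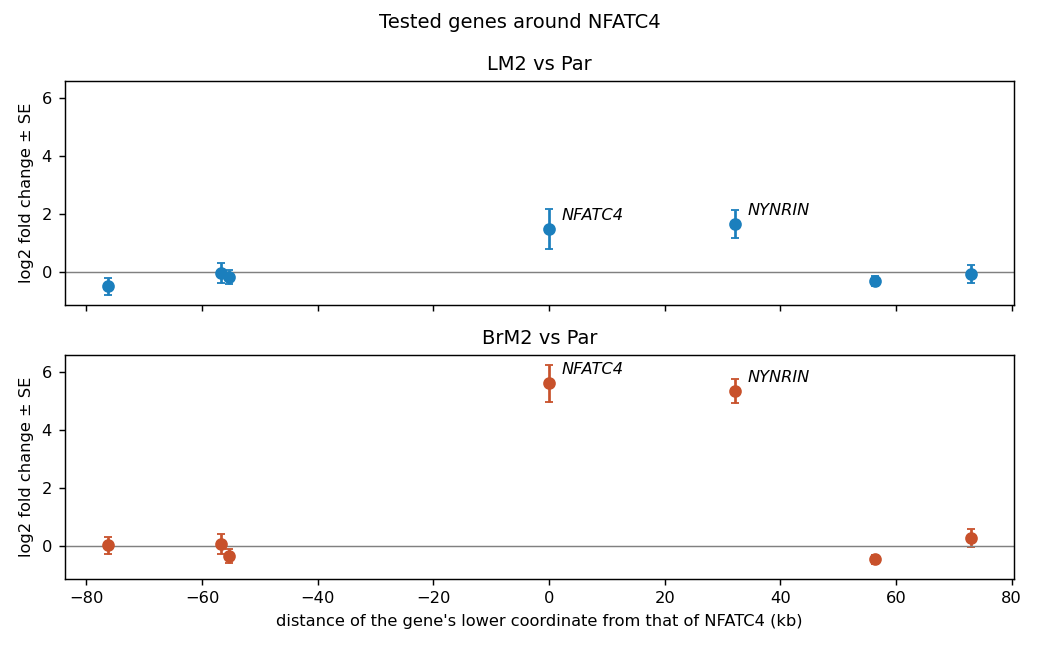
Log2 fold change ± SE (3 libraries per line, edgeR) of the tested genes within 90 kb of NFATC4 against the distance between their lower coordinates, for LM2 over Par (top) and BrM2 over Par (bottom). In BrM2, NFATC4 at 5.62 and NYNRIN at 5.37 stand apart from neighbours between -0.46 and 0.29.

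The tested genes whose pattern over the 9 libraries was most like that of NFATC4 were named by the Pearson r of log2 CPM after centring on the mean of the libraries with the same replicate number. They were ROBO2, an axon guidance receptor (r = 0.997), BUB3, a spindle checkpoint gene (0.997), BABAM1, a subunit of a BRCA1 complex (0.996), RNASEH1, which cleaves RNA in hybrids with DNA (0.994), and CNTN5, a neural adhesion gene (0.993). Without centring, r was 0.956, 0.765, 0.545, 0.933 and 0.946. ROBO2 was at 0 to 0.0524 CPM in Par and at 4.05, 9.02 and 11.5 CPM in BrM2, so it differed in size from BUB3, which was at 285, 340 and 330 CPM in Par and at 440, 582 and 579 CPM in BrM2. For NFATC1 they were TADA2A (0.983), C11orf45 (0.983), DCPS (0.978), C16orf74 (0.977) and RNF20 (0.975), whose r without centring was 0.702, 0.965, 0.804, 0.914 and 0.156. The points are 9 libraries of 3 lines, and the genes were the highest of 13001, so the values are a description.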

How the data were processed

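RNA-seq of Par, LM2 and BrM2 (3 libraries each) was used. According to the methods and labels, the authors made stranded mRNA libraries, aligned paired-end reads to hg38 with STAR 2.7.0 and deposited raw counts per gene, with no normalization. The strand counted is not given in the sources used here. The authors' DESeq2 comparisons (log2 fold changes and adjusted p-values) were also deposited and were not used.

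The table held 58887 rows. For 3 identifiers listed again with identical counts, 1 row was kept, leaving 58884 genes. A filter written after HTSFilter (largest normalized count at least 49.24, where the smoothed Jaccard index of replicates peaked over 100 thresholds from 1 to 200) left 13001 genes holding 99.64% to 99.77% of the counts of each library. They were fitted in edgeR 4.0.16 (limma 3.58.1, R 4.3.3) with TMM factors, the 3 lines as groups and a 2-sided quasi-likelihood test. P-values were adjusted by Benjamini-Hochberg, with a threshold of 0.05. DESeq2 1.42.0, other scalings, other filters, the replicate number as a block and fits without libraries were the alternatives. The fits were also run on simulated counts, which had no replicate effect and less spread than the real data show without the block. That run therefore does not vouch for the fit without the block. Log2 CPM used a prior count of 2. Tables and figures were made in Python 3.11.15 (pandas 2.3.3, matplotlib 3.10.9).

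Depth per library was 14371858 to 24511786 counts. Counting error is largest for NFATC4 and NFATC1, which have the fewest counts of the 8 genes. Lengths, GC content and overlaps came from GENCODE on GRCh37, and coordinates from RefSeq on GRCh38.p14.

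The labels number the replicates 1 to 3 in each line without saying what a number shares. Deviations of log2 CPM from the line means correlated at 0.23 to 0.90 in the 9 pairs of libraries with the same number and at -0.88 to 0.80 in the 18 pairs with different numbers. Replicate 1 was paired across the lines (0.83 to 0.90). Numbers 2 and 3 were not clearly paired, as Par 2 correlated at 0.23 with BrM2 2 and at 0.41 with BrM2 3. The block takes the numbers to pair the libraries, which these values show for replicate 1 only. Adding the block lowered the common dispersion from 0.11 to 0.021.

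The genes and lists were chosen with earlier results of these data known. All 8 genes are named. Of the pathway list, genes past the threshold are named for each comparison, at most the 8 with the largest absolute log2 fold change, and the 5 genes most like NFATC4 and NFATC1. PLCG2 is not analysed here.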

Additional observations from a re-analysis of the deposited data

Results flagged for a closer look

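The genes given here passed the direct test of BrM2 against LM2 (quasi-likelihood, edgeR, Benjamini-Hochberg adjusted), so their differences from Par were not the same in both metastatic lines. NFATC2 had a log2 fold change of 1.08 in BrM2 over LM2 (adjusted p = 0.0054), with all BrM2 libraries above and all LM2 libraries below those of Par. Among the pathway genes, the log2 fold changes of BrM2 over LM2 were 6.28 for ADAMTS1, 2.76 for MEF2C and 2.71 for JUNB, and -1.48 for CTSK, -1.36 for IQGAP1 and -0.63 for SLC6A6. In each of these the 3 BrM2 libraries lay on one side of the 3 LM2 libraries, as in 23.1% of all genes. The genes were taken for passing this comparison, so that separation adds no support. Of 9 fits that each left out 1 library, the call was kept in 0 for SLC6A6, 2 for IQGAP1, 4 for CTSK and 6 for JUNB. It was kept in all 9 for NFATC2, ADAMTS1 and MEF2C.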

How the results depend on the processing

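With the replicate block 4, 3 and 3 of the 6 tested genes passed in LM2 against Par, BrM2 against Par and BrM2 against LM2, in place of 0, 1 and 1. The pathway list gave 29, 27 and 16 in place of 6, 9 and 6, and all genes 4487, 5551 and 4880 in place of 1125, 1721 and 1051. DESeq2 called 2 of the 6 in each BrM2 comparison, 10 and 14 pathway genes against Par in LM2 and BrM2, and 1885 and 1812 of all genes in LM2 against Par and BrM2 against LM2. Its number for all genes in BrM2 against Par is not given, so the calls there have no share beside them. In BrM2 against Par, 0 of the 6 passed with no filter and 0 with filterByExpr, where more genes were tested, and with no filter 11 pathway genes passed in LM2 against Par.

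As single libraries or replicate numbers were left out, the 6 gave 0 to 4 calls in LM2 against Par, 0 to 3 in BrM2 against Par and 0 to 2 in BrM2 against LM2, the pathway list 0 to 29, 1 to 28 and 1 to 13, and all genes 70 to 4301, 158 to 5249 and 53 to 4240. The highest counts came without replicate 1 of all lines, and the lowest of all genes without replicate 2, where each line keeps 2 libraries. The log2 fold change of NFAT5 in LM2 over Par turned to -0.00013 with the replicate block and ran from -0.35 to 0.45 over the fits with libraries left out, from -0.58 to 0.06 in BrM2 over Par and from -0.74 to 0.06 in BrM2 over LM2. RCAN1 in BrM2 over Par ran from -0.17 to 0.38 and PPP3CB from -0.11 to 0.01. The directions of the other log2 fold changes of the 8 genes held under all alternatives. Other causes of these changes were not tested. No scaling changed a call of the 6 genes.

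The precision is set by 3 libraries per line and, for NFATC4 and NFATC1, by few counts. Passages share a selection, so differences between lines cannot be told apart from differences between these particular populations.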
